A study of Mus musculus with 16 samples.

Results

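Fabp6, the bile acid binding protein of ileal enterocytes, differed 261-fold between libraries of isolated mouse enterocytes that carry the same cell type label, and the 9 enterocyte libraries of the series (of 16 libraries in all) were ordered by it. The score of a library was log2(value + 1) of Fabp6, with values in normalised reads. The rule took all 9 enterocyte libraries, left Fabp6 out, and asked which genes followed the score once score and genes had been centred within genotype. After adjustment over 6583 genes no other gene followed the score in the main test. Those with the smallest p were the ileal hormone gene Pyy, higher with Fabp6, and the proximal folate transporter Slc46a1, lower. The order was chosen by the measured values of Fabp6, which are given as a description, with no test. The libraries were primary enterocytes of strain C57B6 from 4 samples labelled WT and 5 labelled Mfge8 KO (called null here), mice with and without the secreted glycoprotein MFGE8. The other 7 libraries came from whole small intestine of WT (4) and Cd36 null (3) mice, were normalised in a separate table, and enter no test here. The labels used here name no stretch of the intestine, no age, no sex, no deleted exons and no isolation method for the enterocytes. They also do not say which libraries are of separate mice: the p-values rest on the variation among these 9 libraries, and part of it may be technical.

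The small intestine divides its work along its length. The duodenum and jejunum absorb most iron, folate, sugar and fat, while the ileum recovers bile acids and vitamin B12. In ileal enterocytes the transporter encoded by Slc10a2 takes up bile acids at the brush border, the protein encoded by Fabp6 binds them in the cytosol, the transporter pair Slc51a and Slc51b exports them, and the bile acid receptor FXR (Nr1h4) senses them and induces Fabp6 and the hormone Fgf15. The transcription factor GATA4 is present in the proximal epithelium, where it is known to keep the bile acid genes off, and absent from the terminal ileum.

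The promoters of Fabp6 and of Slc10a2, the bile acid gene whose level followed it most closely, are shown because FXR and GATA4 act on these genes. The windows are the 250 bases before the annotated start, from RefSeq on GRCm38.p6 (the assembly also called mm10), read on the gene's own strand, which is the minus strand for both. In Fabp6 (chromosome 11, 43596040 to 43601562) the window is chr11:43601563-43601812, and capitals mark a pair of inverted repeats with a 1-base spacer (IR-1), the arrangement that FXR binds. In Slc10a2 (chromosome 8, 5083219 to 5105287) the window is chr8:5105288-5105537, and capitals mark letters of a GATA motif, read on the other strand.
Fabp6: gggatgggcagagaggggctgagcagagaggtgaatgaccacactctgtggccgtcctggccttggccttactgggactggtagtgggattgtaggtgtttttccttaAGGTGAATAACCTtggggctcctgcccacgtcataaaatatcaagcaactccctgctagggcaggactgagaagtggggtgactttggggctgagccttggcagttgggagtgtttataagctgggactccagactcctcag
Slc10a2: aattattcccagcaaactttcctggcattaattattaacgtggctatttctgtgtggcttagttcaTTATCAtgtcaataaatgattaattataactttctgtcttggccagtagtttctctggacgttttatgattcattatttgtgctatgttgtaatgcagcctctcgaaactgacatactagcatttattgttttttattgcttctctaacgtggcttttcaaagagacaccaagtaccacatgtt
The pattern, AGGTNA followed by 1 base and the reverse complement of AGGTNA, reads the same on both strands and lay 142 to 130 bases before the start of Fabp6 and was present in 6 of 32851 promoter windows of this length (0.0183%). It was chosen after the Fabp6 window had been seen, since a pattern tried first, built in the same way from GGTCA, was in 11 windows (0.0335%) and in none of those matched from the bile acid list or from the 2 sets of 15 genes below. The GATA letters AGATAA or TGATAA, searched on both strands, were in 5452 of the windows (16.6%), among them Slc10a2 at 184 to 179 bases before its start. They were in 3 of the 7 windows matched from the 9 genes of the bile acid list, in 2 of 10 matched from the 15 genes taken below for the smallest p and higher levels at high Fabp6, and in 0 of 12 matched from the 15 with lower levels. The HNF4 letters CAAAGTCCA, found in 0.384% of all windows, were in none of these sets. A match describes the letters in the window and does not show a bound site.

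Fabp6 was at 43.3, 396.7, 415.9 and 8959 normalised reads in WT libraries, listed here and below from low to high Fabp6 as WT 1, WT 3, WT 2 and WT 4. In null libraries, listed as null 4, null 2, null 1, null 3 and null 5, it was at 34.3, 351.9, 1204, 2352 and 6807. Both genotypes thus covered almost the whole range, from 32 reads in null 4 to 9024 reads in WT 4, and the lowest pair of libraries (null 4 and WT 1) lay 8.13-fold below the next. The mean score was 8.98 ± 3.15 in WT (SD, n = 4) and 9.55 ± 2.91 in null (SD, n = 5), a difference between genotypes of 0.57 against a range of 7.99 on the log2 scale. Whole intestine, in its own table, held 262.9 to 283.9 normalised reads of Fabp6 in WT and 62.9 to 77.7 in Cd36 null libraries. Enterocyte libraries held 1618369 to 2459812 reads. All 9 markers of enterocytes were measured, with summed levels of 14442 to 19333 normalised reads in WT and 17128 to 22445 in null libraries. Summed markers of smooth muscle were at 0 to 3.92 and of endothelium at 5.35 to 18.04 normalised reads, with 1 of 5 and 2 of 4 markers at 0 in all libraries. Other cell types were present. Summed goblet cell markers were at 50669 to 83064 in WT and 33404 to 104949 in null libraries. Markers of T cells and intraepithelial lymphocytes summed to 1389 to 4273 in WT and 3766 to 9187 in null. Such sums depend on the level of each marker and are not shares of cells.

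**Figure D1:**
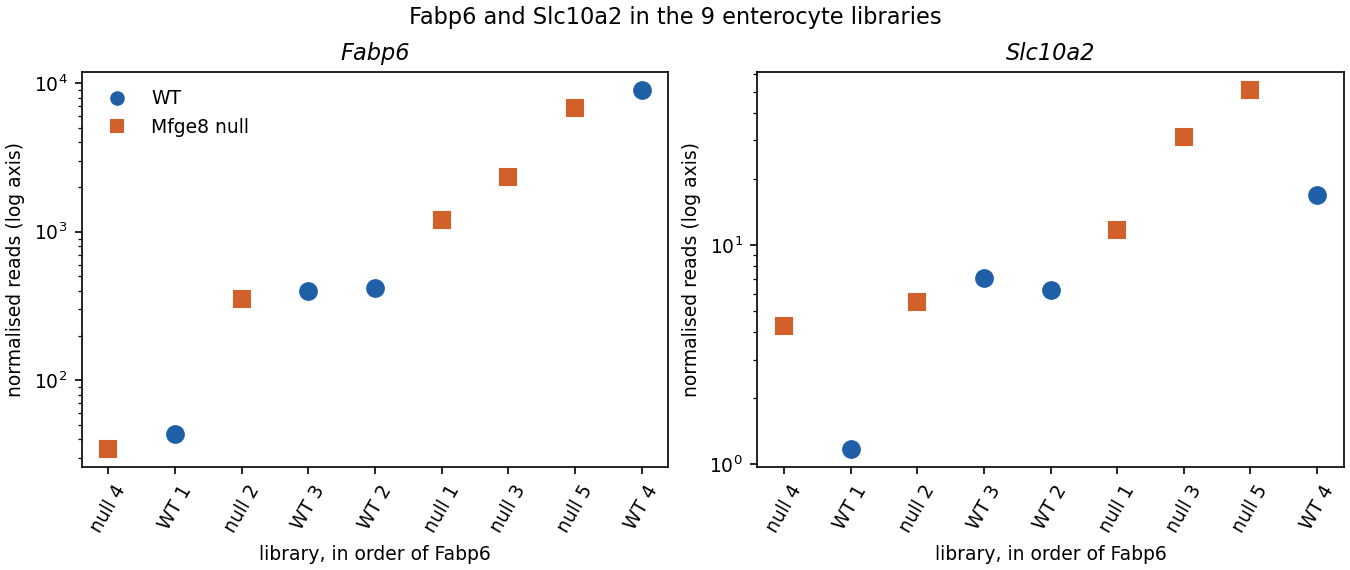
Normalised reads (log axis) of Fabp6 and Slc10a2 in each of the 9 enterocyte libraries, which are placed from low to high Fabp6, with WT as circles and Mfge8 null as squares. Fabp6 ran from 34.3 in null 4 to 8959 in WT 4, and Slc10a2 from 1.17 in WT 1 to 50.9 in null 5.

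Slc10a2, the ileal bile acid transporter, followed Fabp6 most closely among the genes of bile acid handling. It was low in every library, with 1.17, 7.06, 6.24 and 16.9 normalised reads in WT and 4.28, 5.48, 11.8, 30.96 and 50.9 in null libraries, from 1 to 62 reads. Within each genotype the libraries lowest in Fabp6 were also lowest in Slc10a2, and the highest were highest. Centred within genotype, Slc10a2 had a Pearson r of 0.93 (exact permutation p = 0.00278) and a Spearman rho of 0.90 (exact permutation p = 0.00799), n = 9, and r was 0.98 without the 2 libraries farthest from the median score (WT 4 and null 4). Its mean of 14.96 lay under the minimum of 20 for the fit over all genes. With the minimum at 5 its slope was 0.42 (SE 0.07, limma adjusted p = 0.0959), the second smallest p of 9361 genes, so it did not pass there either.

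None of the other bile acid genes tested had a slope with an unadjusted limma p under 0.05. Slc51b, a subunit of the exporter, was at 277, 259, 254 and 261 in WT and 358, 439.6, 438, 569 and 527 in null libraries, and its slope was 0.04 (SE 0.03, limma adjusted p = 0.755). All null libraries lay above all WT libraries, while WT 4, highest in Fabp6, held no more Slc51b than WT 1. Slc51a, the other subunit, was at 617, 523, 586 and 482 in WT and 592, 939, 678, 869 and 1143 in null (slope 0.03, SE 0.03), and Nr1h4, the receptor FXR, at 47.9, 17.2, 37.4 and 43.7 in WT and 32.1, 31.8, 34.3, 30.96 and 44.3 in null (slope 0.02, SE 0.05). Slc51a was highest in WT 1 and lowest in WT 4, and lowest in null 4 and highest in null 5, and its slopes had opposite signs, -0.05 within WT and 0.10 within null (unadjusted limma p of the difference 0.0242, adjusted 0.527). Fgf15, the hormone that ileal FXR induces, had 0 to 17 reads per library, with 3 in WT 4 and 5 in null 5. Its r was 0.55 (exact permutation p = 0.155) and its rho 0.69 (exact permutation p = 0.0632). Of the 9 genes on the list, 5 reached the minimum, none passed, and 0 had an unadjusted p under 0.05 in either direction (median slope 0.02). Under the minimum, Abcc3, a basolateral exporter, had a mean of 17.7 and Nr0b2, a repressor that FXR induces, a mean of 2.18 with 11 of its reads in WT 1. Nr0b2 correlated negatively with the score, at a Pearson r of -0.83 (exact permutation p = 0.0167) and a Spearman rho of -0.68 (exact permutation p = 0.05), n = 9, with r = -0.64 without WT 4 and null 4.

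No gene passed the test. Slopes are changes in log2(value + 1) of a gene per unit of log2(value + 1) of Fabp6, fitted with genotype as a term by limma with a trend, so a slope of 0.23 is 3.62-fold over the whole range of the score. Of 6583 genes with a mean of at least 20, 0 (0%) had an adjusted p under 0.05 in either direction, and the smallest adjusted p was 0.171. At an unadjusted p under 0.05 there were 534 genes (8.11%), of which 217 (3.3%) were higher and 317 (4.82%) lower with more Fabp6. By edgeR on whole reads recovered from the values, 0 (0%) genes passed and 504 (7.66%) had an unadjusted p under 0.05. By DESeq2 on those reads 9 of the 5051 genes with an adjusted p passed (0.178%): Pyy, Mgat4c and Guca2a were higher, and Slc46a1, Cftr, Ckb, Adh6a, Lamp2 and Marc2 lower, with 427 (6.49%) at an unadjusted p under 0.05. By limma without null 4, 5 genes passed and 931 had an unadjusted p under 0.05, 3 genes passed without WT 4, 1 each without WT 2 and without null 1, and without WT 1 the unadjusted count was 310. The median slope over all genes was -0.0033, the median SE was 0.04, and 47% of slopes were positive. Genes beside the minimum were Gnpda2, with a mean of 20.003, and Arnt2, with 19.997.

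Genes with the smallest p and the same sign in both genotypes were taken, 15 in each direction, since none passed. That choice fixes their agreement in sign. Across all genes the slope in the 4 WT libraries was almost uncorrelated with that in the 5 null libraries, 2 sets that share no library: Pearson r over the 6583 genes was -0.02 and Spearman rho -0.01, with genes that are not independent of each other. The sign was the same for 3269 genes (49.7%). Of the 975 genes (14.8%) with an unadjusted p under 0.05 in WT libraries alone, 53.5% had the same sign in null libraries, and of the 333 (5.06%) in null libraries alone, 46.5% had the same sign in WT.

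**Figure D2:**
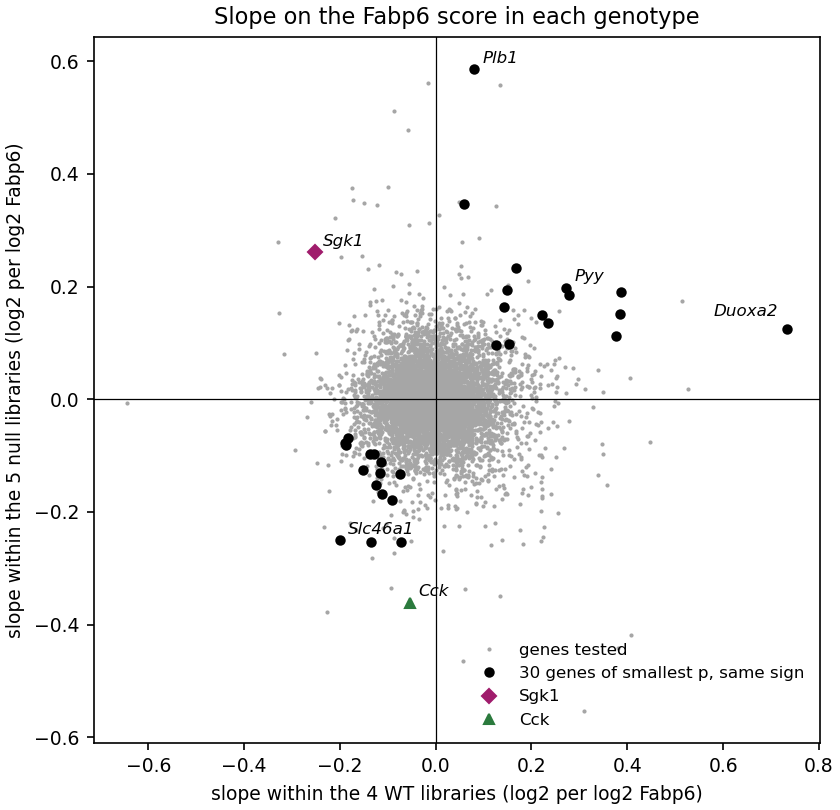
Slope of each of 6583 genes on the Fabp6 score within the 4 WT libraries (x axis) against its slope within the 5 null libraries (y axis), both in log2 per log2 of Fabp6. The cloud has no tilt (r = -0.02), and the 30 genes of smallest p with the same sign (black) lie in the upper right and lower left fields by the way they were chosen; Sgk1 and Cck are marked by a diamond and a triangle.

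Among genes with higher levels at high Fabp6, the smallest p belonged to Pyy, the gut hormone peptide YY of enteroendocrine cells of the distal gut (chromosome 11, 102106676 to 102107832). It was at 35.1, 54.1, 55.1 and 148 normalised reads in WT and 65.3, 59.2, 127, 189.8 and 139 in null libraries. WT 4 stood above the other WT libraries by more than their spread, and the 3 null libraries highest in Fabp6 all lay above the other pair. The slope was 0.23 (SE 0.04, limma adjusted p = 0.171; DESeq2 adjusted p = 0.000934). It lay between 0.17 and 0.31 under the alternatives that kept log2 of Fabp6 as the score. Mgat4c, a member of a family of N-glycan branching enzymes, was at 45.6, 64.3, 162 and 207 in WT and 199, 300.3, 432, 453 and 500.3 in null (slope 0.23, SE 0.04, limma adjusted p = 0.171). The libraries of each genotype ranked for Mgat4c as they did for Fabp6. At equal score null libraries held more, with an adjusted p for genotype of 0.000764 by limma. Guca2a, which encodes the secretory peptide guanylin, was at 993, 1480.1, 1141 and 1394 in WT and 246, 664, 628, 1219.6 and 1625 in null. Its slope was 0.06 within WT and 0.35 within null, where null 4 was lowest. The difference of these slopes had an unadjusted limma p of 0.00054 (limma adjusted p = 0.323, DESeq2 adjusted p = 0.0115).

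Plb1, a brush border phospholipase, had the largest slope of these genes within null libraries, at 0.59, and 0.08 within WT. Its levels were 318, 515, 739 and 521 in WT and 55.7, 434, 579, 1016 and 1195 in null, and null 4 lay far below the rest. Over both genotypes the slope was 0.35 (SE 0.08, limma adjusted p = 0.319), carried more by null than by WT libraries. The difference of the 2 slopes had an unadjusted limma p of 0.000113 (limma adjusted p = 0.185, DESeq2 adjusted p = 0.000116). Duoxa2, the maturation factor of the epithelial oxidase DUOX2, had its larger slope within WT, with 1.17, 6.27, 23.9 and 107 in WT and 539.7, 892, 318, 1590.1 and 1038 in null and slopes of 0.73 and 0.13. Its WT libraries spanned 1.17 to 107 normalised reads and lay below every null library. The slopes of Duoxa2 differed between genotypes at an unadjusted limma p of 0.00171 (adjusted 0.389). Suox, the mitochondrial sulfite oxidase, was at 10.5, 24.3, 21.8 and 28.8 in WT and 19.3, 26.3, 33.3, 46.9 and 71.4 in null, and in both genotypes the library lowest in Fabp6 was lowest and the highest was highest. Of the others, 8 were Tagap, Ccl4, Rac2 and Jchain, all expressed in blood-derived cells, the signalling protein Bmp2, the G protein regulator Rgs2, the cyclin Ccnd2 and the epithelial adhesion protein Tmigd1. Their slopes ran from 0.11 for Ccnd2 to 0.28 for Tagap, with limma adjusted p of 0.319 to 0.412.

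Among genes with lower levels at high Fabp6, the smallest p belonged to Slc46a1, the proton-coupled folate transporter of the proximal gut (chromosome 11, 78465701 to 78471945). It was at 270.1, 233, 182 and 95.3 normalised reads in WT and 125, 85.5, 31.3, 42.9 and 39.4 in null libraries. The library lowest in Fabp6 held the most Slc46a1 in each genotype, and WT 4 held less than the other WT libraries. The slope was -0.23 (SE 0.04, limma adjusted p = 0.171; DESeq2 adjusted p = 0.000256), a 3.51-fold difference over the score's range. At equal score null libraries also held less, with a null minus WT difference of -1.54 on the log2 scale (limma adjusted p = 0.000899 for genotype). Cftr, the chloride channel, was at 108, 72.1, 64.5 and 50.6 in WT and 170.3, 86.6, 54.8, 43.9 and 51.7 in null, with the genotypes overlapping (slope -0.20, SE 0.04, limma adjusted p = 0.171). Ckb, brain-type creatine kinase, was at 390.5, 269, 262 and 234 in WT and 612, 429, 360.4, 273 and 245 in null (slope -0.14, SE 0.03). The libraries of each genotype ranked for Ckb in the reverse of their Fabp6 order.

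Onecut2, a transcription factor of the proximal small intestine, was at 178, 162, 151 and 121 in WT and 143, 66.9, 78.4, 38.95 and 36.9 in null libraries. Null 4 reached the WT levels and the other 4 null libraries lay below all WT libraries. The slope was -0.17 (SE 0.04, limma adjusted p = 0.319), -0.07 within WT and -0.25 within null. Leap2, which encodes a secreted peptide that blocks the ghrelin receptor, was at 1736, 1313, 1074 and 658 in WT and 666, 651, 439.8, 469 and 519.99 in null, and its slope was carried more by WT (-0.18) than by null libraries (-0.07); the difference of these slopes had an unadjusted limma p of 0.0481. Adh6a, an alcohol dehydrogenase, was at 1803, 906, 1168 and 888 in WT and 1101, 889, 633, 486 and 571 in null, and Slc37a4, the glucose 6-phosphate transporter of gluconeogenesis, at 321, 196, 169 and 116 in WT and 173, 210.5, 148, 125 and 125 in null. In both of these WT 1 was the highest WT library. The other 8 were the lysosomal membrane protein Lamp2, the cytokine Il18, Cox15 of haem synthesis, Pgrmc2, Marc2, the caspase Casp6, the gap junction protein Gjb1 and Tmco4. Their slopes ran from -0.14 to -0.11, with limma adjusted p of 0.319 each.

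**Figure D3:**
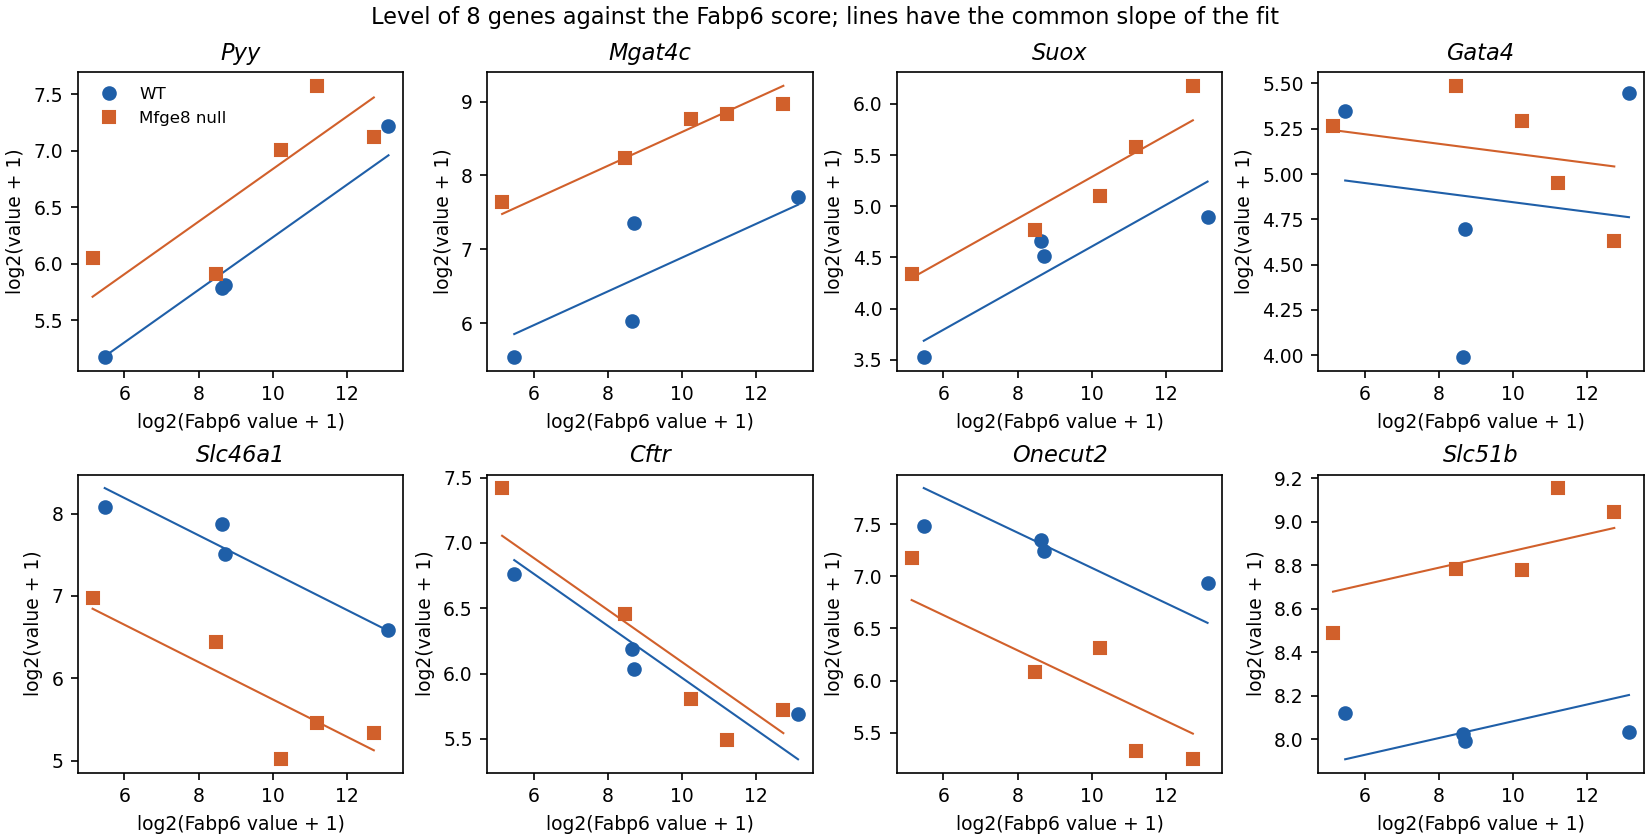
Level of 8 genes as log2(value + 1) against the Fabp6 score, log2(value + 1) of Fabp6, with 1 point per library (WT circles, null squares) and lines of the common slope drawn through each genotype's mean. Pyy, Mgat4c and Suox climb along the score and Slc46a1, Cftr and Onecut2 descend, while Gata4 and Slc51b have slopes of -0.03 and 0.04 and lie scattered around near-level lines.

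**Figure D4:**
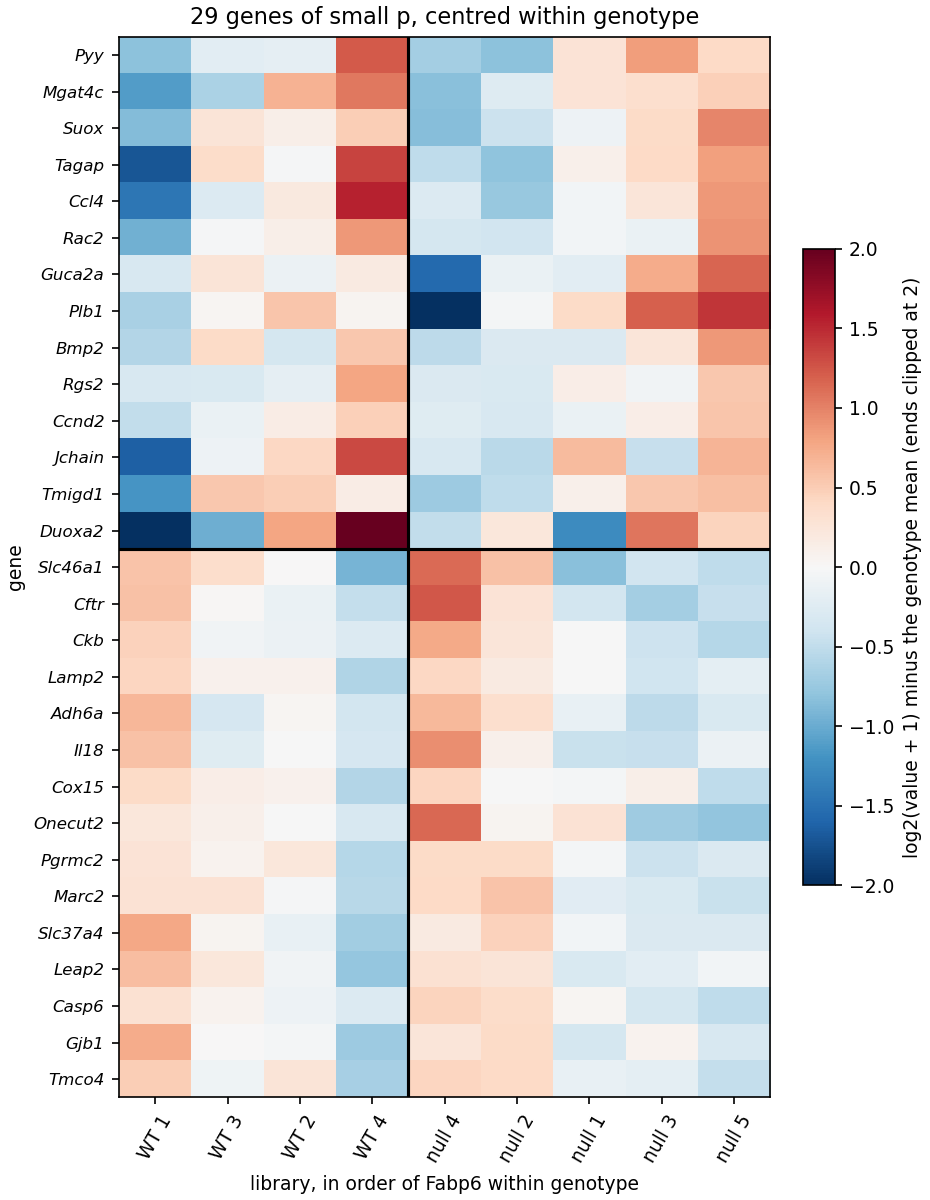
The plot shows 29 of the 30 genes of smallest p, 14 higher (top) and 15 lower (bottom) with more Fabp6, as log2(value + 1) minus the mean of the genotype, in libraries ordered by Fabp6 within genotype, with colours clipped at 2 and -2. WT 1 and null 4 at the left of each block and WT 4 and null 5 at its right carry most of the contrast, and Plb1 in null 4 and Duoxa2 in WT 1 and WT 4 show the deepest colours.

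Of 24 intestinal transcription factors 17 reached the minimum, and none passed (median slope 0.0004). At an unadjusted p under 0.05, 2 were higher and 1 lower, beside 3.3% higher and 4.82% lower for all genes tested. The lower one was Onecut2, and the higher ones were Cdx1, a caudal-type factor of the posterior gut, at 99.4, 98.8, 132 and 167 in WT and 89.9, 75.6, 107, 133 and 109.9 in null (slope 0.08, SE 0.03), and Hnf4a, a master factor of enterocytes. Hnf4a was at 285, 452, 422 and 434 in WT and 475, 431, 477, 711 and 572 in null (slope 0.06, SE 0.03). Gata4 did not separate the ends of the order: it was at 39.7, 14.9, 24.95 and 42.7 in WT and 37.5, 43.8, 38.2, 29.97 and 23.8 in null libraries (slope -0.03, SE 0.06, limma adjusted p = 0.9404). WT 4, the library with the most Fabp6, held as much Gata4 as WT 1, which had almost the least Fabp6. Its r was -0.16 (exact permutation p = 0.734), and -0.87 (exact permutation p = 0.0278) without WT 4 and null 4. Gata5 and Gata6 had slopes of 0.04 and -0.02, and Cdx2, Klf5 and Hnf4g slopes within 0.01 of 0. Over the bile acid, vitamin B12 and transcription factor lists 34 genes were correlated with the score, and 5 had an unadjusted exact p under 0.05 by Pearson's r (Slc10a2, Onecut2, Nr0b2, Lmbrd1 and Cdx1) and 3 by Spearman's rho. No other genes were correlated, so the share over all genes is not known for this test. By limma 8.11% of all genes tested had an unadjusted p under 0.05. Onecut2 had a Pearson r of -0.82 (exact permutation p = 0.00174) and a Spearman rho of -0.77 (exact permutation p = 0.0368), n = 9, with r = -0.69 without WT 4 and null 4.

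Vitamin B12 uptake, the other ileal task, gave no gene with an unadjusted limma p under 0.05 for its slope among the 4 of 5 genes that reached the minimum. Cubn, the receptor cubilin, was at 302, 712, 339.99 and 228 in WT and 49.3, 219, 90.1, 217 and 177 in null (slope 0.08, SE 0.08), and its partner amnionless (Amn) at 1385, 1681, 1245 and 790.2 in WT and 1015, 1588, 1143, 1565 and 1767 in null (slope -0.01, SE 0.04). Cubn was lower in WT 4 than in the other WT libraries and lowest of the null libraries in null 4. The slopes of both had opposite signs in the genotypes: Cubn had -0.07 within WT and 0.22 within null (unadjusted limma p of the difference 0.0459), and Amn -0.11 and 0.09 (unadjusted limma p of the difference 0.00872). Neither difference passed the adjustment over all genes (0.575 and 0.4903 by limma), and 8.61% of all genes had an unadjusted p under 0.05 for it. Lmbrd1, a lysosomal vitamin B12 exporter component, had a slope of -0.04 (SE 0.03) and a Pearson r of -0.73 (exact permutation p = 0.0493) and a Spearman rho of -0.68 (exact permutation p = 0.06597), n = 9, with r = -0.92 without WT 4 and null 4. No marker of ileal or proximal position in these lists passed over all genes, and the libraries are called by their Fabp6 order, not by a segment.

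Genes of nutrient absorption typical of the proximal gut mostly had negative slopes. All 13 genes of carbohydrate digestion, fructose use and gluconeogenesis were negative, with 0 higher and 3 lower at an unadjusted p under 0.05 and a median of -0.07, beside a median of -0.0033, 3.3% higher and 4.82% lower for all genes tested. G6pc, the last enzyme of glucose release, was at 57.3, 29.8, 36.4 and 15.9 in WT and 28.9, 30.7, 18.6, 3.995 and 14.8 in null (slope -0.23, SE 0.07, limma adjusted p = 0.485). The others at that level were the glucose transporter Slc2a2 (-0.10) and Fbp1 of gluconeogenesis (-0.13). Lactase (Lct) had a slope of -0.10 (SE 0.06) and sucrase-isomaltase (Sis) of -0.05 (SE 0.04). None of the 13 passed.

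Of 8 measured retinoid genes 2 were lower at an unadjusted p under 0.05 (median -0.06). Over all genes tested 3.3% were higher and 4.82% lower at that p. Rbp2, the cellular retinol carrier of enterocytes, was at 1539, 753, 1029 and 585 in WT and 1143, 1642, 927, 767 and 698 in null (slope -0.15, SE 0.04, limma adjusted p = 0.319). WT 1 was highest in WT, while in null libraries null 2 held the most. Of 7 measured iron and calcium genes all slopes were negative (median -0.03) and 1, the ferritin heavy chain Fth1 (slope -0.09, SE 0.03), had an unadjusted p under 0.05. For peptide digestion and amino acid transport the direction was mixed: of 16 genes 3 were higher (Slc1a1, Anpep and Xpnpep2) and 1 lower (Slc7a8). Slc1a1, a glutamate transporter, was at 15.2, 20.4, 12.5 and 51.6 in WT and 32.1, 84.4, 40.2, 88.9 and 71.4 in null (slope 0.18, SE 0.06, limma adjusted p = 0.482).

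Genes of fat handling had more negative than positive slopes. Over all genes tested the median slope was -0.0033, with 3.3% higher and 4.82% lower at an unadjusted p under 0.05. Of 16 genes of fatty acid uptake and triglyceride synthesis 0 were higher and 4 lower at an unadjusted p under 0.05 (median -0.06), among them the transporters Cd36 (-0.09) and Slc27a2 (-0.13). Fabp1, the liver-type fatty acid binding protein and a relative of Fabp6, was at 27349, 22984, 17991 and 14688 in WT and 17963, 22124, 14025, 14009.7 and 7670.3 in null (slope -0.13, SE 0.04, limma adjusted p = 0.4797). The library highest in Fabp6 was the lowest in Fabp1 in each genotype. Fabp2, the intestinal form, had a slope of 0.06 (SE 0.05). Of 11 apolipoprotein and chylomicron genes 3 were lower: Apoa4 (-0.11), the chylomicron assembly protein Mttp (-0.08) and its partner subunit P4hb (-0.09), while Apob and Apoa1 had slopes of 0.00 and -0.01. Cholesterol synthesis had 5 of 20 genes higher, 1 lower and a median of 0.04. Hmgcs1, an early enzyme of the pathway, was at 518, 458, 515 and 743 in WT and 518, 597, 567, 682 and 888 in null (slope 0.08, SE 0.03, limma adjusted p = 0.485), and the lower one was Insig1, which restrains the pathway (-0.12). None of these genes passed.

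Slopes of detoxification genes were mostly negative, and none passed. Of 20 genes of cytochrome P450, conjugation and drug efflux 18 slopes were negative and 6 had an unadjusted p under 0.05, with none higher (median -0.08); they included Cyp3a13 (-0.09) and Cyp3a25 (-0.11). Of 12 glutathione transferases 11 were negative and 3 had an unadjusted p under 0.05 (median -0.07). Of all slopes 47% were positive, and 4.82% of all genes were lower at an unadjusted p under 0.05. Members of these families can share reads with near-identical copies. The esterase Aadac was at 728, 444, 509 and 221 in WT and 78.2, 153, 76.4, 64.9 and 45.1 in null (slope -0.17, SE 0.05, limma adjusted p = 0.412), with every WT library above every null library. The counts describe the genes of a list and are no test of it.

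**Figure D5:**
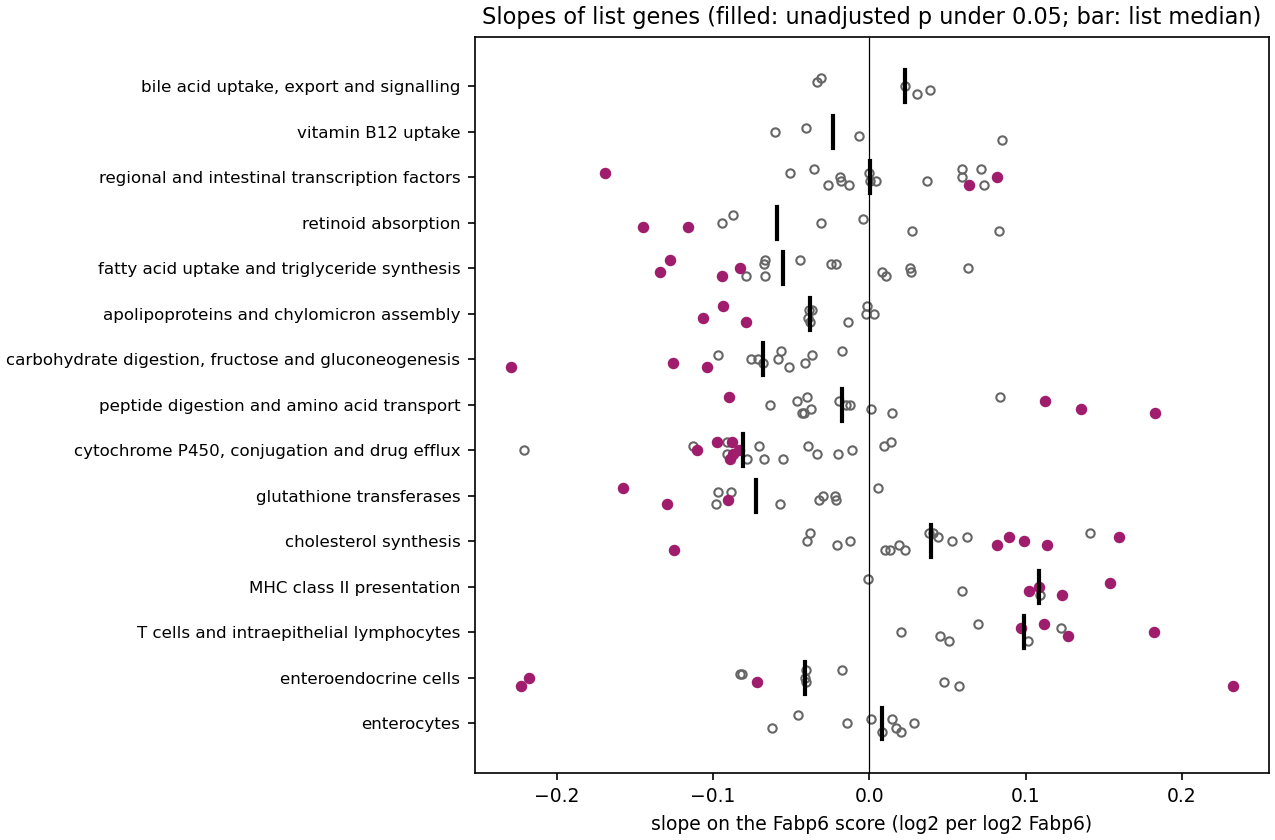
Slopes on the Fabp6 score (log2 per log2 of Fabp6) of the genes in 15 lists with a mean of at least 20, 1 circle per gene, filled where the unadjusted p was under 0.05, with a bar at the list's median. All 13 circles of the carbohydrate list lie left of 0 and all 10 of the T cell list right of it. The 5 bile acid genes that reached the minimum sit within 0.04 of 0, and Slc10a2, under the minimum, is not shown. No gene passed the adjusted threshold.

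Genes of blood-derived cells had mostly positive slopes, and none passed. All 10 measured markers of T cells and intraepithelial lymphocytes had positive slopes, 4 of them (Ptprc, Itgae, Cd8a and Nkg7) at an unadjusted p under 0.05, where 47% of all slopes were positive and 3.3% of all genes were higher at that p, with a median of 0.10. Itgae, the integrin that tethers lymphocytes to the epithelium, was at 18.7, 7.84, 35.4 and 61.6 in WT and 26.8, 28.5, 65.6, 28.97 and 59.9 in null (slope 0.18, SE 0.08, limma adjusted p = 0.576). All 11 markers summed to 2810.5, 1389, 3898 and 4273 in WT and 5627, 3766, 6898, 4299 and 9187 in null libraries, so WT 4 and null 5 held the most in their genotypes, while WT 3 and null 2 held the least. Their part in the slopes of Rac2, Ccl4 and Tagap was not tested. Jchain, the joining chain of secreted antibodies, was at 14.03, 42.3, 61.3 and 116 in WT and 218, 189, 425, 199 and 438 in null (slope 0.24, SE 0.06). The summed plasma cell and B cell level, Jchain included, was 17.5 to 124 in WT and 206 to 499 in null, with 1 of 5 markers at 0 in all libraries. Mzb1, Cd79b and Ms4a1 of that list lay under the minimum. Mzb1 was at 0, 11.8, 6.24 and 1.99 in WT and 17.1, 9.87, 16.7, 3.995 and 40.2 in null. Cd79b was at 3.51, 14.1, 8.32 and 1.99 in WT and 1.07, 5.48, 17.6, 3.995 and 13.9 in null. Ms4a1 was at 0, 10.2, 8.32 and 3.97 in WT and 0, 2.19, 10.8, 0 and 6.56 in null. In bulk libraries more cells of a type and more RNA per cell cannot be told apart.

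Of 7 measured MHC class II genes 4 were higher at an unadjusted p under 0.05 (median 0.11). Over all genes tested 3.3% were higher and 4.82% lower at that p. Cd74, the invariant chain, was at 19.9, 33.7, 80.1 and 81.4 in WT and 311, 555, 413, 399.5 and 527 in null (slope 0.15, SE 0.05, limma adjusted p = 0.485), with every null library above every WT library. Of 14 antimicrobial and inflammatory genes 5 were higher and 2 lower. The lower pair were the regenerating proteins Reg3a, at 2561, 743, 1317 and 910.4 in WT and 877, 559, 259.6, 222 and 391 in null (slope -0.20, SE 0.05), and Reg1, at 724, 61.9, 277 and 178 in WT and 114, 111, 36.2, 8.99 and 30.3 in null (slope -0.31, SE 0.11, limma adjusted p = 0.493). Their relatives Reg3b and Reg3g had slopes of -0.04 and 0.00. The higher ones were Duoxa2, Duox2, Nos2, Ccl6 and Sprr2a3, a squamous envelope protein with a slope of 0.36 (SE 0.10).

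Hormone genes had slopes of both signs. Of 12 measured enteroendocrine genes 1, Pyy, was higher and 3 were lower at an unadjusted p under 0.05 (median -0.04). Over all genes tested 3.3% were higher and 4.82% lower at that p. Cck, the cholecystokinin of the proximal gut, was at 371, 206, 203 and 259 in WT and 526, 149, 118, 95.9 and 77.1 in null (slope -0.22, SE 0.06, limma adjusted p = 0.319), with slopes of -0.05 within WT and -0.36 within null. The difference of these slopes had an unadjusted limma p of 0.00112 (adjusted 0.369). Ghrl, which encodes ghrelin, was at 61.96, 37.6, 25.99 and 34.7 in WT and 73.9, 12.1, 15.7, 7.99 and 13.1 in null (slope -0.22, SE 0.07), and its null 4 library stood alone above the other null libraries. Gip, the hormone of proximal K cells, had a slope of -0.08 (SE 0.05) and Nts, neurotensin of the distal gut, of 0.05 (SE 0.05). Gcg and Tac1 of this list lay under the minimum. Gcg was at 25.7, 5.49, 21.8 and 28.8 in WT and 12.8, 14.2, 17.6, 10.99 and 15.6 in null libraries. With the minimum at 5 the slope of Gcg was 0.03 (SE 0.08, limma adjusted p = 0.944) and that of Tac1 0.16 (SE 0.06, limma adjusted p = 0.571). The summed level of the 14 markers was 5309.96, 5509, 3801 and 5785 in WT and 4848, 2777, 3269, 3194 and 2641 in null; null 4 was the highest null library, and WT 1 and WT 4 differed little. Markers of goblet cells had 2 of 8 higher (Clca1 and Guca2a), Paneth cells 0 of 7, with all 7 positive (median 0.12), and enterocytes 0 of 9 (median 0.01).

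The genotype difference was little moved by the score. With the score in the fit 274 genes (4.16%) passed an adjusted p of 0.05 for genotype by limma, 142 (2.16%) higher and 132 (2.01%) lower in null libraries, and without it 278 (4.22%), with 249 (3.78%) in both. Of the 15 genes taken as higher with Fabp6, 4 passed for genotype at equal score, and of the 15 taken as lower also 4. In all 69 of 6583 genes had both a slope with an unadjusted limma p under 0.05 and a genotype call. Of all genes tested 8.11% had such a slope and 4.16% a genotype call. Both rest on the same libraries, and their overlap was not tested. Without WT 1 the genotype count was 134, without WT 2 147, without null 4 168 and without null 3 179.

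Sgk1, a kinase induced by salt-retaining hormones, was the only gene whose slope differed between genotypes at an adjusted p under 0.05 by limma. It was at 424, 290.1, 208 and 111 normalised reads in WT and 98.5, 189.6, 180.2, 399.5 and 367 in null libraries. In WT the library with the least Fabp6 held the most Sgk1 and WT 4 the least, and in null libraries null 4 held the least and null 3 and null 5 the most. The slopes were -0.25 in WT and 0.26 in null, and their difference was 0.51 (SE 0.07, limma adjusted p = 0.0331). It was the only gene of 6583 (0.0152%) to pass, beside 567 (8.61%) at an unadjusted p under 0.05. By limma no gene passed when WT 4, null 3, null 4 or null 5 was left out, and without WT 1 Celf5 passed and Sgk1 did not. With depth as a covariate 0 genes passed by limma. DESeq2 on recovered reads passed 9 genes for the slope difference, among them Sgk1, Plb1 and Guca2a.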

How the data were processed

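Per the labels' protocols, total RNA went into forward 3' tag libraries that carry unique molecular identifiers, read single-end, so a gene's level comes from the end of its transcript. The submitters' processing notes list HTSeq 0.91, DESeq2 2.11.40, Trimmomatic 0.38.1, the build mm10 and HISAT2 2.1.0; their settings, the use of the identifiers and the strand setting are not given in the sources used here, so genes that overlap on opposite strands cannot be told apart. The authors deposited a normalised signal per gene for 24420 features. Divided by the smallest value above 0 of its library, 100% of them came out whole (tolerance 1e-06), and these numbers were taken as reads. For WT 4 and null 3 that step is less certain, because their size factors (1.007 and 1.001) are close to 1. Depth was 1618369 to 2459812 reads per library; counting error only is covered by read numbers.

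Groups were taken from the labels. Features with a mean of at least 20 over the 9 libraries, other than Fabp6, were tested (6583), and 17836 lay under the minimum. Slopes were tested in R 4.3.3 on log2(value + 1) by limma 3.58.1, run with its trend option and with genotype and Fabp6 score as terms, 2-sided, Benjamini-Hochberg adjusted over all genes tested with a threshold of 0.05; a model with their interaction tested slope differences. The log2(value + 1) scale understates changes of low genes. edgeR 4.0.16 and DESeq2 1.42.0 on recovered reads were alternatives. Correlations of values centred within genotype were tested by exact permutation over all 2880 pairings within genotype (smallest possible p 0.000347), 2-sided, and are given unadjusted for 34 genes with a mean of at least 1. These 2 numbers hold for all 9 libraries. Without WT 4 and null 4 there were fewer pairings, and the smallest possible p was larger. Named genes were, for each direction, the 15 of smallest p with the same sign in both genotypes, because none passed (1 of the 30 is not reported here), all measured genes of 3 lists, and up to 4 genes per other list with an unadjusted p under 0.05; further genes are named with values where a list is described. Gene positions and promoter windows came from RefSeq tables on GRCm38.p6. The members and lists were chosen with earlier results of these data known. On simulated data for the slope on the Fabp6 score (6583 genes, equal dispersion of 0.0428 for every gene) slopes of 0.1, 0.2 and 0.4 were called for 19.2%, 90.6% and 100% of changed genes, with 8 false among 143 calls. In the data the spread differs between genes, and slopes of 0.35 for Plb1 (SE 0.08) and 0.41 for Duoxa2 (SE 0.11) did not pass. The simulated shares therefore do not say which slopes would have been found in the data.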

Additional observations from a re-analysis of the deposited data

Results flagged for a closer look

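The slope of Sgk1 on the Fabp6 score differed between genotypes by 0.51 (null minus WT; limma adjusted p = 0.0331), which no other gene did in this fit.

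In 128 checks of a gene within a genotype, 5 had 1 library apart from the others by Dixon's criterion, where chance gives about 1 in 20. Null 5 was high for Rac2 (103 normalised reads) and for Nr1h4 (44.3). WT 4 was high for Rgs2 (395), and WT 1 low for Hnf4a (285). For Nr0b2 null 4 held 2.14 normalised reads, where the other null libraries were at 0.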

How the results depend on the processing

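No gene passed for the Fabp6 score by limma with the pseudocount, the minimum, TMM scaling or depth as a covariate changed, or by edgeR on all libraries. DESeq2 gave 9 genes, and 9 for the slope difference between genotypes; ranks of Fabp6 gave 2 (Pyy and Slc46a1). A score from Slc10a2 and Fgf15 gave 1 (Reg1) and 0 slope differences. Null libraries alone gave 3 (Cck, Guca2a and Plb1), and unadjusted counts of 333 in null and 975 in WT libraries alone. With no minimum the unadjusted count was 1052. Leaving out each library in turn gave 0 to 5 genes, with 5 without null 4 (Aadac, Akna, Ccl4, Clca1 and Nr4a2), 3 without WT 4 (Cck, Guca2a and Plb1), 1 without WT 2 (Mgat4c) and 1 without null 1 (Slc46a1). Over these settings the unadjusted count was 310 to 931, the genotype count 134 to 289 and the count of slope differences 0 to 1. With depth as a covariate 0 slope differences passed. Genotype counts were 31 without WT 4 and null 4, and 115 without WT 1 and null 4. edgeR without WT 4 and null 3 gave 1 gene (Cck), 295 unadjusted and 124 for genotype. The settings without WT 1 and null 4 and without WT 4 and null 3 were chosen after seeing the data. The cause of these changes was not tested.

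Deviations of same-numbered libraries from their group means correlated at r of -0.16, -0.11, 0.31 and 0.17 for replicates 1 to 4, and at -0.06, -0.12, 0.36 and 0.68 with the score removed. Not every pair was above 0.1, so the numbers were not taken as pairs. With the replicate number as a block 1 gene passed (Plb1), 659 had an unadjusted p under 0.05 and 281 passed for genotype.

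Slopes on the ranks of Fabp6 and on the score from Slc10a2 and Fgf15 were not counted here. Of 742 alternative slopes of the 30 genes of smallest p, 0 had the opposite sign and 17 passed. These 30 genes had been chosen for the same sign in both genotypes. Their slopes within WT or null libraries alone, which are among the 742, could therefore not turn. Of 1835 alternative slopes of the other named genes 70 had the opposite sign and 5 passed. Among those with an unadjusted p under 0.05 by the main test, Xpnpep2 (-0.0508) and Ghrl (0.0093) turned without WT 1 and null 4. TMM scaling shifted the median slope by 0.0043. Slc10a2, at 1 to 62 reads, and Fgf15, at 0 to 17, are limited by depth.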
